A study of Rattus norvegicus with 12 samples.

Results

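The Homer, Lin7 and Dlg genes encode scaffold proteins that hold receptors and their signalling partners in place under the postsynaptic membrane of excitatory synapses. They were read here in the cortex of young and aged rats by every probe set that the platform annotation gives to Homer1, Homer2, Homer3, Lin7a, Lin7b, Lin7c, Dlg1, Dlg2, Dlg3 or Dlg4. A probe set is a group of short probes matching part of a transcript. The 10 genes have 22 probe sets of 31099 on the array, and all 22 exceeded a signal of 19.7 (4.3 on the log2 scale) on at least 3 arrays, as did 28193 probe sets in all. A further probe set names both Hax1 and Homer1 and was left out. The genes were grouped around Homer3, Lin7b and Dlg3, and the set was chosen by the log2 difference of these 3 between aged and young rats in these same data. The age differences of the members are therefore described without a test.

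RNA came from 12 male Fischer 344 (F344) rats, 1 array per rat, with 6 young and 6 aged rats. Age is the only difference between the groups that the labels give. The labels give the young rats as 3 to 5 and the aged rats as 21 to 23 months old, where the methods give 3 and 21 months. All rats, young and aged, carried a wireless emitter for EEG and EMG, had been trained in the water maze, and were killed straight after the probe trial. The rats on arrays were those that entered the study earliest in each age group. The region is parietal cortex by the sample titles, and frontal cortex by the labels' tissue field. Pieces of cortex hold many cell types, so fewer cells of a type and less RNA per cell cannot be told apart in any value below.

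Median signals per array ran from 162 to 172 in young and from 168 to 194 in aged rats, and aged rat 6 had the highest. Aged rats 2 and 6 had the lowest mean correlation with the other arrays, at 0.945 and 0.950. The sample codes fall into a lower series, with young rats 1 to 3 and aged rats 1 to 4, and a higher series, with young rats 4 to 6 and aged rats 5 and 6. The labels do not say what the series are. Marker genes of neurons were present at a mean log2 signal of 12.02 to 12.20 in young and 11.94 to 12.07 in aged rats, and 15 of 18 were lower in aged rats (median log2 difference -0.07). Markers of microglia were higher in aged rats in 11 of 12 cases (median 0.25), of oligodendrocytes and myelin in 10 of 10 (0.25), of endothelium in 7 of 7 (0.22), of blood in 4 of 4 (1.05) and of astrocytes in 7 of 9 (0.04). Mean log2 signals of the blood markers were 6.78 to 7.40 in young and 7.70 to 8.48 in aged rats. Of the 4 blood markers, the neutrophil genes S100a8 (2.23) and S100a9 (1.60) had the larger log2 differences, and S100a8 passed the signal filter only through the aged rats. Hbb (0.23) and Alas2 (0.50), genes of red blood cells, overlapped between the groups. Mean log2 signals of the microglial markers were 8.09 to 8.42 in young and 8.15 to 9.15 in aged rats. None of these markers passed limma (described below) at an adjusted p under 0.05, and 1 microglial and 2 blood markers had an unadjusted p of up to 0.01. Over all probe sets 1.63% were higher and 0.514% lower in aged rats at that unadjusted p. The part of these cell types in the age differences below was not tested.

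Homer proteins bind proline-rich stretches of group I metabotropic glutamate receptors, of inositol trisphosphate and ryanodine receptors and of Shank proteins. Their long forms also bind each other through a coiled coil and so bridge these partners. The Homer1 gene also gives a short form, known as Homer1a, which lacks the coiled coil, is made in response to neuronal activity and loosens these bridges. Lin7 proteins, also called Veli or MALS, are small PDZ-domain adaptors that join the kinase-like scaffold Cask and the adaptor Apba1. Dlg proteins are membrane-associated guanylate kinase homologues (Dlg1 is SAP97, Dlg2 PSD-93, Dlg3 SAP102 and Dlg4 PSD-95), and their PDZ domains hold NMDA receptors, potassium channels and neuroligins. Dlg proteins are linked to Homer through Dlgap and Shank proteins.

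Promoter sequence was available for 8 of the 10 genes, from RefSeq on the GRCr8 build. Shown are the 250 bases before the gene start of Homer1, the member with the largest age differences, and of Homer3 and Lin7b, around which the genes were chosen, as the stretches in which motifs of activity-regulated and common promoter factors were searched. Homer1 lies at chr2:26278762-26279011 on the + strand, Homer3 at chr16:19174599-19174848 on the - strand and Lin7b at chr1:104986079-104986328 on the - strand. Each is written 5′ to 3′ along its gene, and capitals mark a motif match.
Homer1: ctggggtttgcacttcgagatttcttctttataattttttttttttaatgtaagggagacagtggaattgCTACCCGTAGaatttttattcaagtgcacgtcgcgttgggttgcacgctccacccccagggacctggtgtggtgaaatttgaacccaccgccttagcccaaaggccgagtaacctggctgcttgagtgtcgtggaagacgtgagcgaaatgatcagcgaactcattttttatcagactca
Homer3: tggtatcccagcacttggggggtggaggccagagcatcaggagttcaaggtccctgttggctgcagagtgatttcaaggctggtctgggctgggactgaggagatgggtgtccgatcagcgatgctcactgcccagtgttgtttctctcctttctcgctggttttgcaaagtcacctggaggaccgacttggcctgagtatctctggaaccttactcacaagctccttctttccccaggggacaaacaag
Lin7b: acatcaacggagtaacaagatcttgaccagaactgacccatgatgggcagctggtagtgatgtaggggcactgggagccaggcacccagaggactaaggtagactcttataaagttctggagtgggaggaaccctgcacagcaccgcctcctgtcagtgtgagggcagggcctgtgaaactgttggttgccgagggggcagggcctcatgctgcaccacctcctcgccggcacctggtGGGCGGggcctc
Searched on both strands were the CREB motif TGACGTCA and its core TGACG, which lies within it, the E-box CACGTG, the Egr motif GCGNGGGCG, the outer letters of the MEF2 motif (CTA and TAG spaced by any 4 bases) and the GC box GGGCGG, whose letters can overlap those of the Egr motif. Homer1 held these outer letters of the MEF2 motif once, starting 180 bases before the gene start. Of the promoters of 33469 genes, 3.41% held them. The 4 bases between them, CCCG in Homer1, were left free in the search. Neither the match nor the share therefore stands for a full MEF2 motif. Lin7b held GGGCGG once, at 12 bases before the start, and 30.5% of all promoters held it. The Homer3 stretch held none of these letter strings. Of the other members, Dlg1 held CACGTG (5.59% of all), Lin7a GGGCGG and Lin7c TGACG (18.2% of all). The stretches of Homer1, Homer3 and Lin7b had 46.4%, 55.2% and 60% G and C, against a median of 51.2% over all promoters. A match is a string of letters and shows no binding, and which start site was used in these rats was not measured.

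Homer3, Lin7b and Dlg3 differed between the age groups in different directions. Homer3 was higher in aged rats on one of its probe sets, and Lin7b and Dlg3 were lower. On Homer3 probe set 1385573_at the signals of young rats 1 to 6 were 113, 93.1, 98.4, 74.6, 70.7 and 116, and those of aged rats 1 to 6 were 171, 115, 167, 165, 129 and 149. Of the 6 aged rats, 5 lay above every young rat, and aged rat 2, at 115, lay just under young rat 6, at 116. The log2 difference, aged minus young, was 0.67 with a standard error (SE) of 0.15, a 1.60-fold ratio of the geometric means. It was 0.60 in the lower and 0.71 in the higher code series, and 0.76 without aged rats 2 and 6.

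The other Homer3 probe set, 1370212_at, gave signals of 48.4 to 73.5 with a median of 65.6 in young rats and 53.9 to 76.2 with a median of 68.9 in aged rats. Homer3 signals were low. All those on 1370212_at, and the young ones on 1385573_at, lay below the lowest median signal of any array, 162. The groups overlapped over most of their range, and the log2 difference was 0.04 (SE 0.13), which changed sign to -0.11 under quantile normalization and to -0.03 under median centring. The ratio of 1385573_at to 1370212_at on the same array, which leaves out the scaling of the array, ran from 1.17 to 1.83 in young and from 2.07 to 2.39 in aged rats. The mean log2 ratio was 0.53 ± 0.22 (SD, n = 6) in young and 1.17 ± 0.07 (SD, n = 6) in aged rats. The ratio uses the values by which Homer3 was chosen and is given as a description. Which transcript forms the probe sets read is not given in the sources used here.

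Lin7b, one of the Lin7 adaptors, was read by 1370078_at. Its signals in young rats 1 to 6 were 1917, 1913, 1677, 1951, 1740 and 1827, and in aged rats 1 to 6 they were 1548, 1526, 1500, 1716, 1506 and 1354. Of the aged rats, 5 lay below every young rat, and aged rat 4 lay above young rat 3. The log2 difference was -0.27 (SE 0.07), and -0.22 and -0.36 in the lower and higher code series.

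Dlg3, a Dlg protein known for its early presence at developing synapses, had 4 probe sets. On 1372041_at the young rats 1 to 6 had signals of 1232, 1386, 1332, 1305, 1301 and 1431, and the aged rats 1 to 6 had 1029, 1194, 1104, 982, 1333 and 1118. All aged rats except rat 5 lay below every young rat. The log2 difference was -0.25 (SE 0.08), -0.29 in the lower and -0.14 in the higher code series, which holds aged rat 5. The other Dlg3 probe sets were lower in aged rats too, by log2 differences of -0.12 (SE 0.08) on 1388280_a_at, -0.23 (SE 0.13) on 1387393_at and -0.32 (SE 0.16) on 1395925_s_at, the last of which was -0.19 without aged rat 6. On each of these the age groups overlapped, and 2 or 3 aged rats lay below all young rats.

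**Figure D1:**
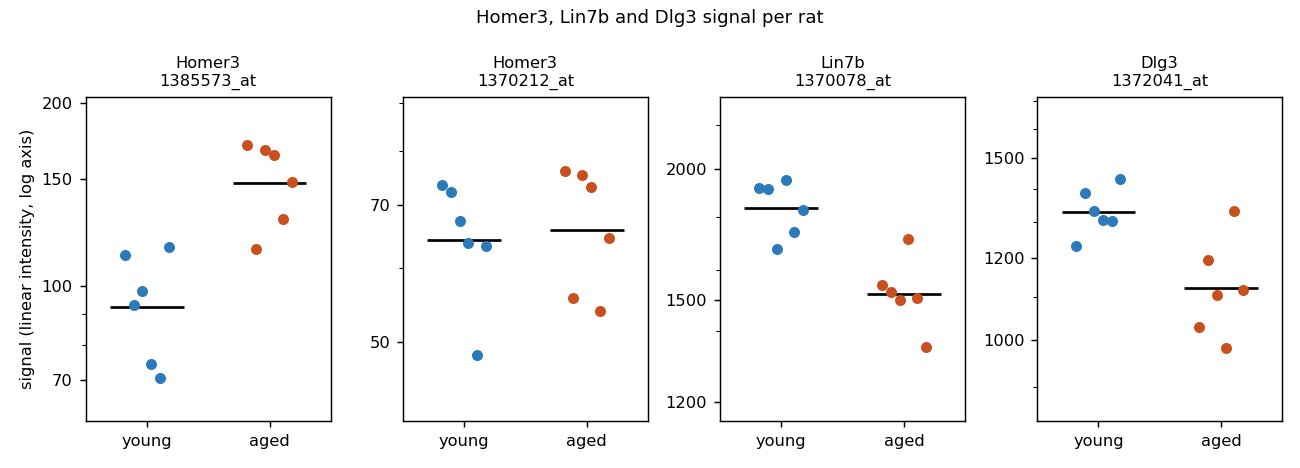
Signal per rat (linear intensity on a log axis) on both Homer3 probe sets, on Lin7b and on Dlg3 1372041_at, with 6 young and 6 aged rats as points and the geometric mean as a line. On Homer3 1385573_at 5 aged rats sit above all young rats while 1370212_at overlaps, and on Lin7b and Dlg3 5 aged rats sit below all young rats.

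Homer1 had 5 probe sets, all lower in aged rats, by very different amounts. The largest difference was on 1370454_at. Its signals in young rats 1 to 6 were 4211, 2774, 2739, 4031, 5247 and 5281, and in aged rats 1 to 6 they were 1336, 1546, 2089, 3075, 2753 and 2760. Aged rats 1 to 3 lay below every young rat, while aged rats 4 to 6 lay among the lower young rats. The means were 4047 ± 1125 (SD, n = 6) and 2260 ± 714 (SD, n = 6), and the log2 difference was -0.86 (SE 0.25). It was -0.73 and -0.80 in the lower and higher code series, and -0.96 to -0.72 when each rat in turn was left out.

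Homer1 1370997_at gave 1450, 4344, 788, 889, 1129 and 1326 in young rats 1 to 6, and 1606, 884, 414, 717, 776 and 617 in aged rats 1 to 6. Young rat 2 stood far above the other rats, aged rat 1 was the next highest of all 12, and 4 aged rats lay below every young rat. The log2 difference was -0.84 (SE 0.42) and was -0.51 without young rat 2. The remaining Homer1 probe sets differed less. On 1368318_at, signals were 4045 to 4828 in young and 3741 to 4348 in aged rats, with a log2 difference of -0.12 (SE 0.06) that was -0.01 in the lower and -0.26 in the higher code series. On 1370656_a_at they were 1606 to 2190 and 1272 to 1818, with -0.21 (SE 0.10), which was -0.02 and -0.47 in the lower and higher series. On 1368319_a_at they were 538 to 775 and 543 to 724, with -0.12 (SE 0.10), which ran from -0.19 without young rat 3 to -0.07 without aged rat 6. On these 3 probe sets the groups overlapped, and the differences were near 0 in the lower code series. On 1368319_a_at the difference was 0.02 there and -0.27 in the higher series.

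The ratio of 1370454_at to 1368318_at on the same array was 0.646 to 1.18 in young and 0.337 to 0.738 in aged rats, and its mean log2 value was lower by 0.74 in aged rats, with overlap. The Homer1 transcripts read by 1370454_at thus differed more with age, in the mean, than those read by 1368318_at. Which probe set reads the long and which the short form of Homer1 is not given in the sources used here.

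**Figure D2:**
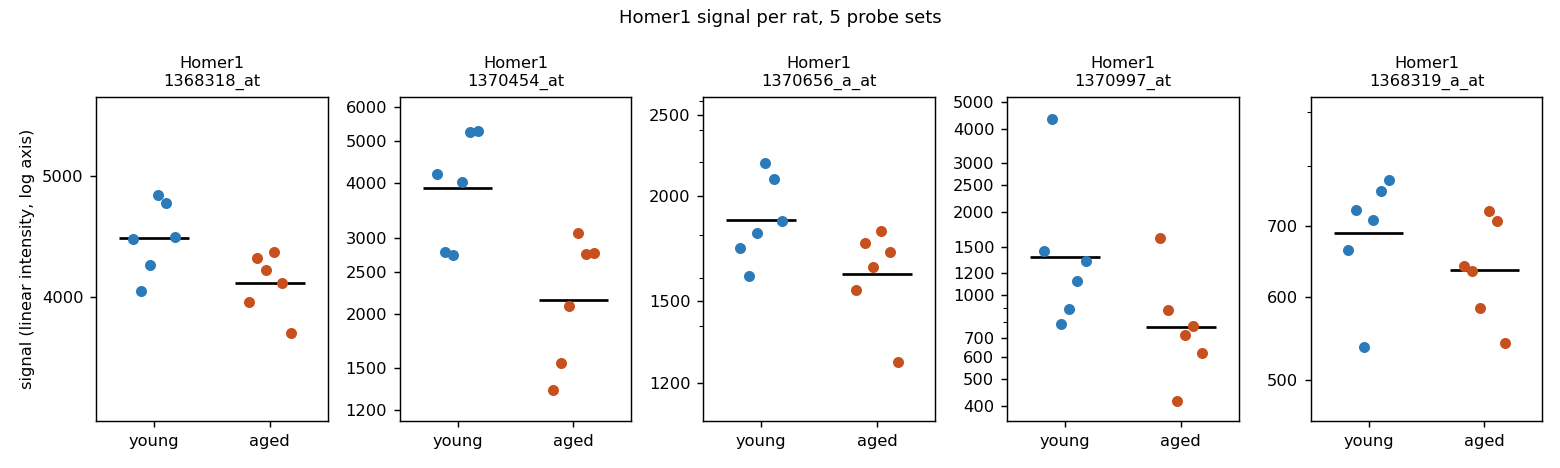
Signal per rat (linear intensity on a log axis) on the 5 Homer1 probe sets, with 6 young and 6 aged rats as points and the geometric mean as a line. Aged rats 1 to 3 sit below all young rats on 1370454_at, young rat 2 (4344) stands apart on 1370997_at, and the remaining probe sets overlap.

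The remaining members differed little. Homer2, a Homer with the coiled coil, had signals of 86.5 to 151 in young and 63.0 to 132 in aged rats on its probe set 1368872_a_at, with a log2 difference of -0.21 (SE 0.19) that was -0.09 without aged rat 5. Lin7a (1370108_a_at) had 140 to 199 and 129 to 168, with -0.14 (SE 0.11), and -0.08 without young rat 3. Lin7c (1369610_at) had 233 to 494 and 290 to 487, and was the only Lin7 gene with a positive difference, at 0.19 (SE 0.18), which was 0.08 without young rat 4 and 0.30 without young rat 1. None of the aged values of Lin7c lay outside the range of the young rats.

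Dlg1, which traffics AMPA receptors, had log2 differences of -0.01 (SE 0.07) on 1388816_at and -0.08 (SE 0.09) on 1368944_at. Signals of 1388816_at were 2257 to 2759 in young and 2288 to 2748 in aged rats. Those of 1368944_at were 1552 to 1986 and 1299 to 1788, and its difference was -0.31 in the higher code series and -0.01 without aged rat 6. Dlg2 (1398276_at) had 230 to 339 and 241 to 342, with -0.06 (SE 0.12). On Dlg1 1388816_at and on Dlg2 the aged rats spanned nearly the range of the young rats, and without a single rat the differences ran from -0.05 to 0.01 and from -0.13 to -0.01.

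Dlg4, the most studied scaffold of the postsynaptic density, had 4 probe sets. Log2 differences were -0.10 (SE 0.12) on 1395468_at, -0.20 (SE 0.13) on 1387210_at, -0.22 (SE 0.15) on 1371183_a_at and -0.04 (SE 0.26) on 1389901_at. On 1387210_at, signals were 654 to 997 in young and 508 to 786 in aged rats, and 3 aged rats lay below all young rats. The groups overlapped on all Dlg4 probe sets. With 1 rat left out the differences of the first to the fourth of them ran from -0.16 to -0.04, -0.25 to -0.11, -0.34 to -0.15 and -0.20 to 0.13.

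Of the 22 probe sets, 19 had lower and 3 higher mean log2 signals in aged rats, and the median log2 difference was -0.13. On 1 of the 19, Dlg4 1389901_at, the mean linear signal was higher in aged rats (66.9 against 65.8). Over all 28193 probe sets 42.3% were lower and the median was 0.03. That background moves with the scaling. Under quantile normalization the medians of members and of all probe sets were -0.19 and -0.01, and under median centring -0.20 and -0.04. Of the neuron markers, 15 of 18 were lower too (median -0.07), so a lower direction is not particular to these scaffolds. By family, 6 of 8 Homer, 2 of 3 Lin7 and 11 of 11 Dlg probe sets were lower, with medians of -0.16, -0.14 and -0.12. Under quantile normalization 10 of 11 Dlg probe sets were lower, with Dlg1 1388816_at at 0.01. With the code series as a block 10 of 11 were lower, with Dlg4 1389901_at at 0.04. Without Homer3, Lin7b and Dlg3, which had set the choice, 14 of the 15 other probe sets were lower (median -0.12). Probe sets of 1 gene share their transcripts, so these counts do not stand for independent genes. All members together had 17 lower probe sets in the lower and 17 in the higher code series, and 17 to 20 when each rat in turn was left out.

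In limma (a moderated linear model per probe set) with Benjamini-Hochberg adjustment over all probe sets, 0 of 22 member probe sets reached an adjusted p under 0.05, where 0.0248% of all probe sets (7) did. At an unadjusted p of up to 0.01 there was 1 higher member, Homer3 1385573_at, and 3 lower ones, Homer1 1370454_at, Lin7b 1370078_at and Dlg3 1372041_at, where the share of all probe sets was 1.63% higher (460) and 0.514% lower (145). That balance moved to 266 higher and 221 lower under quantile normalization and to 255 higher and 341 lower under median centring. No member had aged rats that all lay above or all below the young rats, where 0.429% and 0.192% of all probe sets did. Because the age difference chose the genes, nothing is read from these counts.

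**Figure D3:**
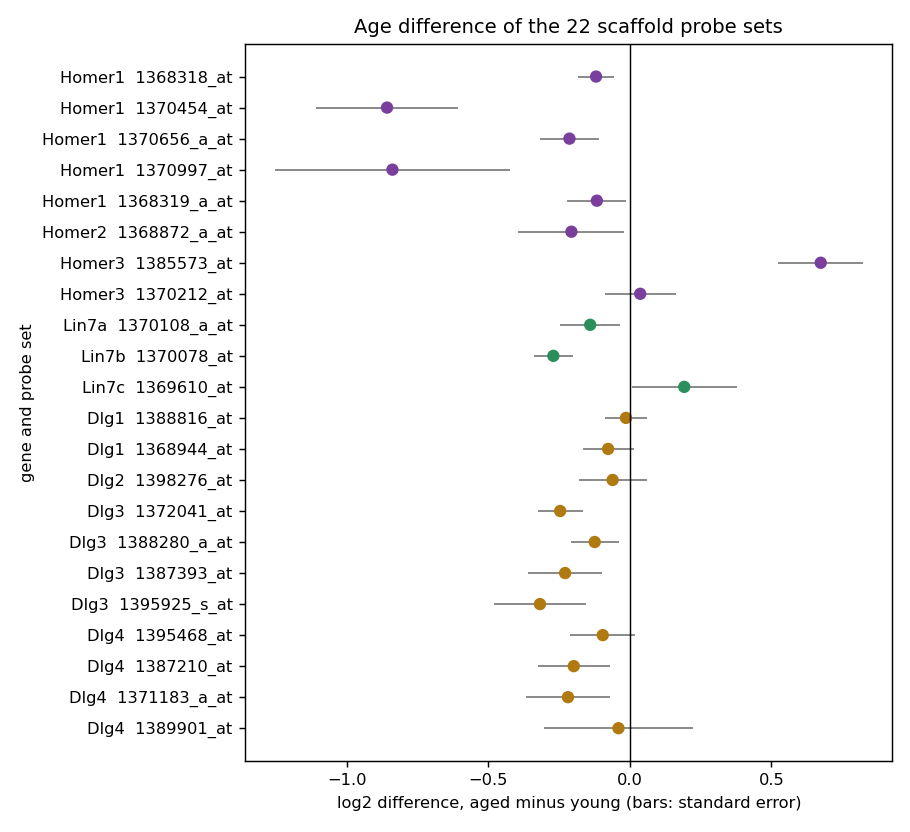
Log2 difference, aged minus young, of the 22 probe sets of the Homer, Lin7 and Dlg genes, with bars of 1 standard error and a colour per family. Points run from -0.86 (Homer1 1370454_at) to 0.67 (Homer3 1385573_at), and 19 lie below 0.

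The members were then compared across rats of the same age, which the choice of the genes had not used. Each rat's deviation from the mean of its age group was correlated over the 12 rats, with exact two-sided permutation of the rats within age groups. A first question was whether probe sets of 1 gene followed each other. Of 24 same-gene pairs, 19 had a positive Pearson r (median 0.40), and 2 had an adjusted p under 0.05 over the 24 pairs. The share over same-gene pairs of all genes is not given, and probe sets of 1 gene share transcripts. Nothing particular to these genes is therefore read from the counts.

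Homer1 1368318_at and 1370656_a_at rose and fell together from rat to rat, with r = 0.93 (exact permutation p = 0.000114, adjusted 0.00273; Spearman's rho 0.94, exact permutation p = 0.000104). Without young rat 2 and aged rat 6 r was 0.88, it was 0.87 with the code series also removed, and the adjusted p stayed under 0.05 when any single rat was left out. With aged rats 2 and 6 both left out r was 0.92 and the adjusted exact permutation p was 0.05.

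Homer3 1385573_at and 1370212_at correlated with r = 0.79 (exact permutation p = 0.00317, adjusted 0.0380; rho 0.69, exact permutation p = 0.0171), and with 0.67 among young and 0.95 among aged rats. That call was less stable, since without young rat 5 and aged rat 2 r was 0.59, and the adjusted p stayed under 0.05 in 2 of 12 cases with 1 rat left out (r from 0.70 to 0.89). With the code series also removed r was 0.76 and the adjusted exact permutation p was 0.108.

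Homer1 1370997_at, the most variable Homer1 probe set, had r = -0.45 with 1368318_at, -0.43 with 1370454_at and -0.36 with 1370656_a_at, but 0.37 with 1368319_a_at, which became 0.64 with the code series also removed. None of these pairs passed the test (adjusted exact permutation p from 0.327 to 0.358). All 6 pairs of Dlg3 probe sets had a positive r, up to 0.71 for 1388280_a_at and 1395925_s_at (exact permutation p = 0.0145, adjusted 0.116). Dlg4 pairs ran from -0.30 to 0.56, and none passed.

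Genes regulated by neuronal activity, such as Arc, Fos and Egr1, were compared because the short form of Homer1 belongs to them. Of 20 such genes 18 were measured, and their mean log2 signal per rat ran from 8.69 to 10.7 in young and from 8.85 to 9.77 in aged rats. Of the 18 genes, 17 had lower mean log2 signals in aged rats (median log2 difference -0.31). At an adjusted limma p under 0.05 there were 0, and 0 at an unadjusted p of up to 0.01. Over all probe sets 1.63% were higher and 0.514% lower at that unadjusted p, so nothing is read from that count. Arc, which acts in AMPA receptor uptake, had signals of 504 to 4507 (median 1541) in young and 570 to 1840 (median 872) in aged rats. Fos, a transcription factor, had 447 to 5031 (median 1415) and 441 to 2417 (median 888), and Egr1, a zinc-finger transcription factor, 4553 to 10989 (median 8083) and 3954 to 8396 (median 6154). On all 3 genes the age groups overlapped, and rats of the same age differed widely.

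Homer1 1370997_at followed these genes from rat to rat, with r = 0.86 within age groups (exact permutation p = 0.000600; rho 0.91, exact permutation p = 0.000307). It had an adjusted p of 0.202 over all 28193 probe sets, so the correlation did not pass the correction. Of all probe sets, the score's own genes among them, 0.039% passed it. The r of 1370997_at lay at the 99.8th percentile of these same probe sets. It was 0.91 among the 6 young and 0.77 among the 6 aged rats, 0.86 with the code series also removed, and 0.93 among the 7 rats of the lower series, while the 5 rats of the higher series are too few for a value. Without young rats 2 and 4, which had the highest and the lowest score among the young, r was 0.81 (exact permutation p = 0.00642), and without each rat in turn it ran from 0.74 to 0.90.

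Young rat 2, with the highest score (10.7), also had the highest Homer1 1370997_at signal, 4344. Among single genes r with 1370997_at was 0.95 for Dusp1, 0.92 for Nr4a1, 0.88 for both Arc and Fos and 0.70 for Egr1, and over the 18 genes it ran from 0.33 (Nr4a2) to 0.95. With the score as a term in limma the slope of 1370997_at was 1.21 (SE 0.23) in log2 units per log2 unit of score. Its limma adjusted p was 0.205 over all probe sets, where 0.0426% passed, again with the score's own genes among them. The age difference in that fit was -0.43 (SE 0.24), beside -0.84 (SE 0.42) without the term. That fit was chosen after the data were seen, and the part of neuronal activity in the age difference was not tested.

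Homer1 1370454_at had an age difference of much the same size as 1370997_at (-0.86 against -0.84) with a smaller SE (0.25 against 0.42). But 1370454_at did not track these genes in the same direction. Its r was -0.43 (exact permutation p = 0.166, adjusted 0.780 over all probe sets; rho -0.24, exact permutation p = 0.476), and -0.12 with the code series also removed. By age group r was -0.22 among the young and -0.83 among the aged rats. Its age difference with the score as a term was -0.98 (SE 0.25), beside -0.86 without it. Of the 22 member probe sets, 2 had an unadjusted exact permutation p of up to 0.05 with the score, 1370997_at and Dlg3 1395925_s_at (r = 0.52, p = 0.0466, adjusted 0.629), and 0 passed the adjustment. The share of all probe sets at that unadjusted p is not given, so nothing is read from the count of 2. Leaving out young rats 2 and 4 raised r of Dlg1 1388816_at from 0.29 to 0.88 (exact permutation p = 0.00237), above that of 1370997_at. It took r of Dlg4 1389901_at from -0.26 to -0.68 (exact permutation p = 0.0490). These p-values are not adjusted.

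**Figure D4:**
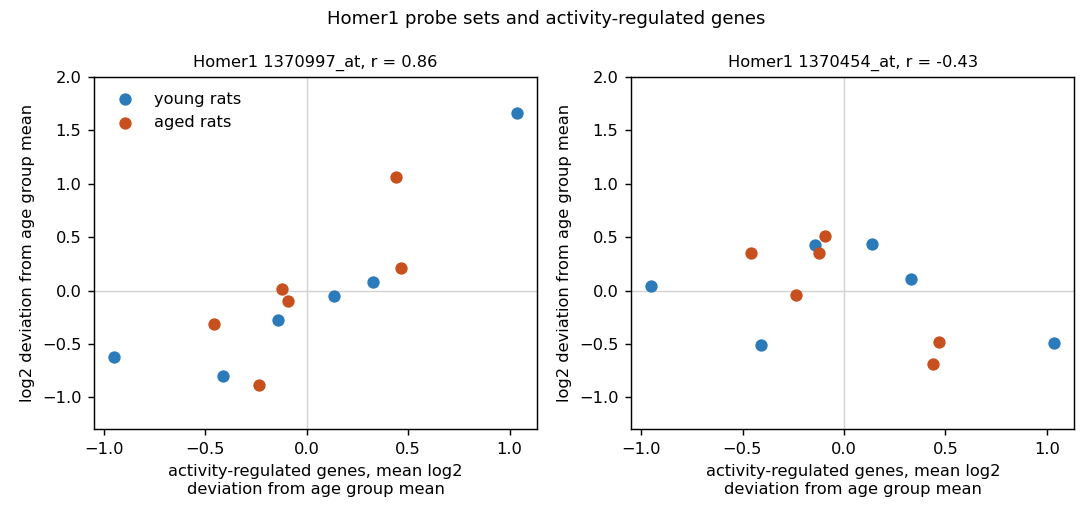
Deviation of each rat from its age group mean (log2) for the mean of 18 activity-regulated genes (x axis) and for Homer1 1370997_at (left) or 1370454_at (right), 6 young and 6 aged rats as points. Points rise from left to right for 1370997_at (r = 0.86) and do not for 1370454_at (r = -0.43).

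Member genes, within or between families, did not vary together in a way the test could show. Genes were represented by their brightest probe set, and of the 45 gene pairs 24 had a positive r, with a median of 0.02. At an unadjusted exact permutation p of up to 0.05 there were 2 pairs and at an adjusted p under 0.05 there were 0. They were Lin7a with Lin7c (r = 0.63, exact permutation p = 0.0431, adjusted 0.966, rho 0.68) and Lin7b with Dlg1 (r = 0.60, exact permutation p = 0.0460, adjusted 0.966, rho 0.65). Of all pairs of measured genes 8.49% had an absolute r of at least that of Lin7b with Dlg1, counting positive and negative r together. The r of Lin7a with Lin7c was 0.42 and that of Lin7b with Dlg1 0.51 with the code series also removed.

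The genes whose deviations within age groups were most like those of Homer3 1385573_at over the 12 rats were Lpcat3 (r = 0.89), Brca2 (0.88) and Pla2g3 (0.88). For Lin7b they were Kgd4 (0.93), Sytl2 (0.90) and Stx17 (0.89), and for Dlg3 1372041_at they were Gnao1 (0.90), Osbpl11 (0.88) and Pkia (0.88). These are the highest of all genes compared and carry no test.

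Proteins that bind the scaffolds were read in 4 lists, of which 48 of 55 genes were measured. Their mean log2 signals were higher in aged rats for 15 genes and lower for 33, with a median log2 difference of -0.07. None passed limma at an adjusted p under 0.05, and 0 had an unadjusted p of up to 0.01. Because only 1.63% of all probe sets were higher and 0.514% lower at that unadjusted p, nothing is read from this count.

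Shank proteins, which bind Homer, and Dlgap proteins, which bind Dlg and Shank, bridge these families. All 7 of 7 had lower means in aged rats (median -0.11), and 0 passed the test. Dlgap4 had 1945 ± 180 (SD, n = 6) in young and 1721 ± 162 (SD, n = 6) in aged rats, a log2 difference of -0.18 (SE 0.09, limma adjusted p = 0.667). Dlgap1 had 4205 ± 176 (SD, n = 6) and 3909 ± 138 (SD, n = 6), a log2 difference of -0.11 (limma adjusted p = 0.676) and Dlgap3 one of -0.29 (SE 0.18, limma adjusted p = 0.745). Shank1, Shank2 and Shank3 had differences of -0.09, -0.09 and -0.05. For Dlgap4 and Dlgap1 the difference of the means exceeded the SD of both groups, and for Dlgap3 and the Shank genes it was below the SD of the aged rats.

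Of the Homer ligands, 3 of 6 measured genes were higher and 3 lower (median 0.00). Grm5, a group I metabotropic glutamate receptor, had 289 ± 37.8 (SD, n = 6) in young and 236 ± 44.4 (SD, n = 6) in aged rats, a log2 difference of -0.30 (SE 0.13, limma unadjusted p = 0.0340, adjusted p = 0.597). Ryr2, a calcium release channel, differed by -0.12 (limma adjusted p = 0.739) and the cation channel Trpc1 by -0.02. The inositol trisphosphate receptor Itpr1 (0.03), the dynamin Dnm3 (0.02) and Agap2 (0.01), a GTPase that binds Homer, were the higher ones. Grm5 alone of these had an unadjusted p under 0.05, and it did not pass the adjustment.

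Of the Lin7 partners, 4 of 10 measured genes were higher and 6 lower (median -0.01). Cask had 977 ± 75.7 (SD, n = 6) and 882 ± 57.5 (SD, n = 6), a log2 difference of -0.15 (SE 0.07, limma adjusted p = 0.657). The inward rectifier channel Kcnj4 differed by -0.21 (limma adjusted p = 0.697) and the scaffold Mpp2 by -0.07. Higher were the scaffold Pals1 (0.10, limma adjusted p = 0.768), the channel Kcnj2 (0.07) and Apba1 (0.04). None passed the test.

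Of the Dlg ligands and regulators, 8 of 25 measured genes were higher and 17 lower (median -0.09). Nlgn1, a neuroligin, had 1548 ± 73.3 (SD, n = 6) and 1431 ± 76.4 (SD, n = 6), a log2 difference of -0.11 (limma adjusted p = 0.677). Cacng8, an auxiliary subunit of AMPA receptors, differed by -0.42 (SE 0.25, limma adjusted p = 0.729) and Cnksr2, a scaffold of Ras signalling, by -0.12 (limma adjusted p = 0.748). Higher were the receptor kinase Erbb4 (0.17, limma adjusted p = 0.837), the potassium channel Kcna1 (0.19, limma adjusted p = 0.843) and the obligatory NMDA receptor subunit Grin1 (0.08, limma adjusted p = 0.914). Kif1b, the point farthest from 0 in the plot of the lists and named after its value was seen, differed by -0.63 (SE 0.77) at signals as low as 1.66, and its spread between rats exceeded the difference.

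**Figure D5:**
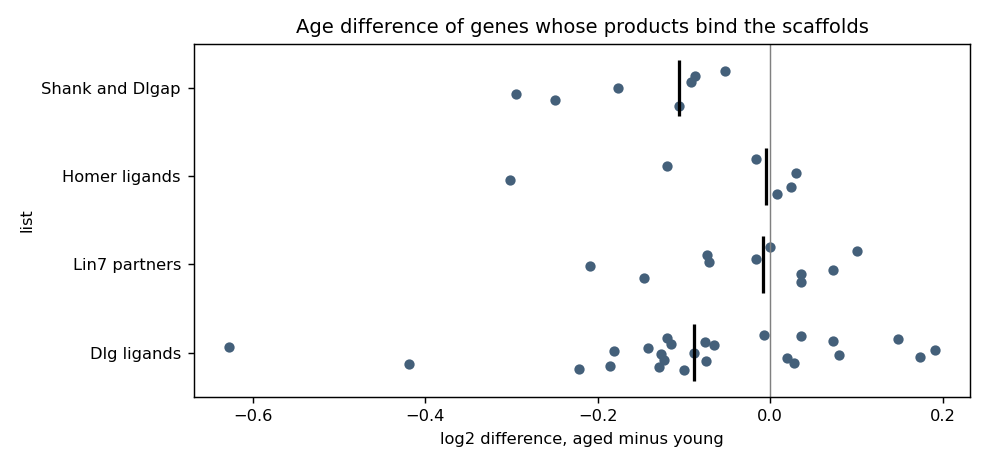
Log2 difference, aged minus young, of the 48 measured genes of 4 lists of proteins that bind the scaffolds, 1 point per gene and the list median as a line. All 7 Shank and Dlgap genes lie below 0, and medians run from -0.11 (Shank and Dlgap) to 0.00 (Homer ligands).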

How the data were processed

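RNA of parietal cortex was hybridised by the authors to 12 Affymetrix RAE230 2.0 arrays. The deposited values are 1 linear signal intensity per probe set and array, with a 2% trimmed mean of 500.1. MAS5, GCRMA and R 2.7.1 stand in the submitters' processing notes. The methods name gcRMA and a scaling to a target intensity of 500. The order of these steps is not given in the sources used here, so the scale may differ from log2 gcRMA values. The number of arrays limits the precision, and no read depth applies.

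The log2 of the deposited intensity was taken with no further normalization. Probe sets above 4.3 on at least 3 arrays were kept, and limma 3.58.1 (lmFit and eBayes, R 4.3.3) was fitted to aged against young. Tests were two-sided, and p-values were adjusted (Benjamini-Hochberg) over the 28193 probe sets. Symbols come from the platform annotation, updated by gene ID: 20832 probe sets have 1 symbol, 436 several and 9831 none. In the gene lists a gene is its brightest probe set. Correlations used deviations from the age group means and all 518400 permutations of the rats within age groups (Python 3.11.15, numpy 2.4.6). The steps were tested on simulated data. The methods state that each rat was housed alone. Whether rats within a group shared a litter is not given. The p-values rest on the spread between these rats.

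Named are all members, in each of the 4 partner lists up to 3 higher and 3 lower genes with the smallest p in limma (the Shank and Dlgap list has no higher gene), Arc, Fos and Egr1, and the 3 genes most like Homer3, Lin7b and Dlg3. Shank1, Shank2 and Shank3, further genes of the activity list, single blood markers and Kif1b were named after their values were seen, as were the same-gene pairs chosen for testing. The members and lists were chosen with earlier results of these data known. The activity correlations had been planned with adjustment over the member probe sets and are given with adjustment over all probe sets instead. The limma fit with the activity score as a term was not planned and was chosen after the data were seen. Alternatives were quantile normalization, median centring, filters at 3.5 and 5.5 and none, the code series as a block or alone, array weights, an intensity trend, the methods' t-test, averaged probe sets per gene, the replicate number as a block, Spearman's rho, and each rat left out. Water maze and sleep values were not used here.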

Additional observations from a re-analysis of the deposited data

Results flagged for a closer look

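The log2 signals of 44 groups of 6 rats were examined (each member probe set in each age group). In 4 groups a rat's gap to its nearest neighbour, divided by the range of the group, exceeded Dixon's 95% critical value. Chance gives about 1 in 20. The ratios in brackets below are on the log2 scale, and the signals beside them are linear. Young rat 2 was the highest on Homer1 1370997_at, at a signal of 4344 against 788 to 1450 in the other young rats (0.642). Young rat 5 was the lowest on Homer3 1370212_at, at 48.4 against 63.3 to 73.5 (0.642). Aged rat 6 was the lowest on Dlg1 1368944_at, at 1299 against 1635 to 1788 (0.720). Young rat 6 was the highest on Dlg4 1389901_at, at 99.5 against 50.4 to 63.7 (0.655). Each of the 4 was a different rat and a different gene.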

How the results depend on the processing

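No member age difference carries a call, and 596 of 604 values of single results under the alternatives moved by less than the spread between rats, while 8 moved by more. Of those 8, 4 came from the higher and 2 from the lower code series alone and 2 from averaged probe sets. The 7 probe sets called for age became 0 in each code series alone, 2 with an intensity trend and robust variances, 4 with the mean of probe sets per gene, 3 with median centring, 4 with quantile normalization, 2 with the replicate block, 2 without aged rats 2 and 6, and 0 to 10 with each rat left out. The 460 higher probe sets at an unadjusted p of up to 0.01 became 254 with 1 probe set per gene, 289 and 234 in the higher and lower series, 262 with means per gene, 255 with median centring and 266 with quantile normalization (330 to 547 with each rat left out). The 145 lower ones became 80, 88, 69, 78, 341 and 221 (90 to 199, the lowest without young rat 6). Fewer probe sets or rats were tested per gene and per series, and the cause of the other changes was not tested. Partner genes at that p, 0 in the report, were 1 with array weights, median centring, the methods' t-test, or without aged rats 2 and 6, and 0 to 2 with each rat left out. The 2 same-gene pairs became 1 with quantile normalization, median centring or Spearman's rho, 0 without aged rats 2 and 6, and 1 to 2 with each rat left out. With the code series also removed there were again 2, but the Homer3 pair was not among them (adjusted exact permutation p = 0.108). Pairs of members and the activity correlations had 0 calls throughout. Rats with the same replicate number deviated together little (r from -0.03 to 0.11), and 2 of 6 young and 2 of 6 aged rats correlated best with their own number, so the numbers were not taken as pairs. The replicate block left 19 of 22 member probe sets lower.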
